A study of Homo sapiens with 4 samples.

Results

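DNA replication genes were examined in the human acute myeloid leukaemia line MOLM-13 after knockdown of c-Myc, of Bcl-2 or of both. The set holds 56 genes taken by symbol from a list of replication proteins and regulators written by hand. The list was written with earlier results of these data known, so the counts below are not those of a set picked blind. All 56 were found among the 24940 genes of the count table. All 56 also passed the filter on low values (at least 1 CPM in at least 1 library), as did 13726 genes in all. RNA-seq was done on 4 libraries, 1 per group: the double knockdown (hairpins against c-Myc and Bcl-2 together), sh-c-Myc (the c-Myc hairpin alone), sh-Bcl2 (the Bcl-2 hairpin alone) and shControl (a negative control hairpin). All 4 lines were made with lentivirus, selected in puromycin or G418 and given doxycycline, so shControl shares lentiviral infection and the inducer with the others. The labels do not say which line had which drug, so equal vectors and selection in all 4 lines are not shown. The sources used here do not give how long the RNA samples were induced or whether a line is a clone or a pool. With 1 library per group no difference has a replicate check: the 95% intervals below cover counting error only, and no p-value between 2 groups is given.

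The hairpin targets were read first. MYC, the transcription factor c-Myc, stood at 302 CPM in the double knockdown, 278 CPM in sh-c-Myc, 364 CPM in sh-Bcl2 and 434 CPM in shControl, so sh-c-Myc was 1.56-fold (1.5 to 1.62) lower than shControl. BCL2, the anti-apoptotic protein that guards the mitochondria, stood at 44.5 CPM in the double knockdown, 112 CPM in sh-c-Myc, 38.7 CPM in sh-Bcl2 and 119.7 CPM in shControl. Both libraries with the Bcl-2 hairpin held low BCL2, while MYC mRNA was lowered by less than 2-fold in both libraries with the c-Myc hairpin. The protein level was not analysed here.

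Replication starts in G1 phase, when the origin recognition complex (ORC) with CDC6 and CDT1 loads the MCM2 to MCM7 helicase onto DNA, a step called licensing. At the start of S phase the kinases CDC7 and CDK2, with TICRR, TOPBP1 and MCM10, bring CDC45 and GINS to the helicase and fire the origin. DNA polymerase alpha-primase then lays down primers, RFC loads the sliding clamp PCNA, and polymerases epsilon and delta copy the strands, with RPA coating single strands and FEN1 and LIG1 joining Okazaki fragments. Many of these genes are transcribed by E2F factors as cells enter S phase, and c-Myc is known to promote that entry. In a bulk library, fewer cells in S phase and less of each mRNA per cell cannot be told apart.

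The replication genes as a set were lowest with the c-Myc hairpin alone and lay between that library and shControl in the double knockdown. They took 0.536% (0.532% to 0.54%) of all counts in the double knockdown, 0.37% (0.366% to 0.373%) in sh-c-Myc, 0.799% (0.795% to 0.804%) in sh-Bcl2 and 0.797% (0.793% to 0.802%) in shControl (exact binomial 95% intervals). Their summed level was 5314.2 CPM in the double knockdown, 3418.3 CPM in sh-c-Myc, 8287.5 CPM in sh-Bcl2 and 8387.8 CPM in shControl, where CPM is counts scaled by TMM to a common library size, a scaling that takes most genes as equal between libraries. The double knockdown thus held 63.4% and the sh-c-Myc library 40.8% of the shControl sum, and the double knockdown stood above sh-c-Myc by 38.2% of the gap between sh-c-Myc and shControl.

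Against shControl, 38 of the 56 genes were called lower in sh-c-Myc and 0 higher, where a call needs a ratio of at least 2-fold, an interval that excludes 1 and the CPM filter; of all 13726 genes tested 9.8% were called lower and 12.7% higher. The members' median log2 ratio was -1.22, against -0.02 over all genes, and the ratios ran between -2.39 for UHRF1 and -0.15 for ORC2. The interval lay below 0 for 56 of the 56 genes, as for 37.1% of all genes. In CPM, sh-c-Myc was the lowest of the 4 libraries for 56 of the 56 genes (35.1% of all genes). The double knockdown lay above sh-c-Myc and below shControl for 56 of the 56 (28.6% of all genes had this order). With libraries scaled by total counts or by upper quartiles these counts were 54 and 52. The exceptions were ORC2 and ORC5 for the first and ORC2, ORC5, PRIM2 and RPA3 for the second. The genes not called lower were ORC2, ORC5, GMNN, CDC7, DBF4, GINS4, TOPBP1, POLA1, POLA2, PRIM1, PRIM2, POLD3, POLE, RFC1, RPA1, RPA3, TIMELESS and DNMT1.

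**Figure D1:**
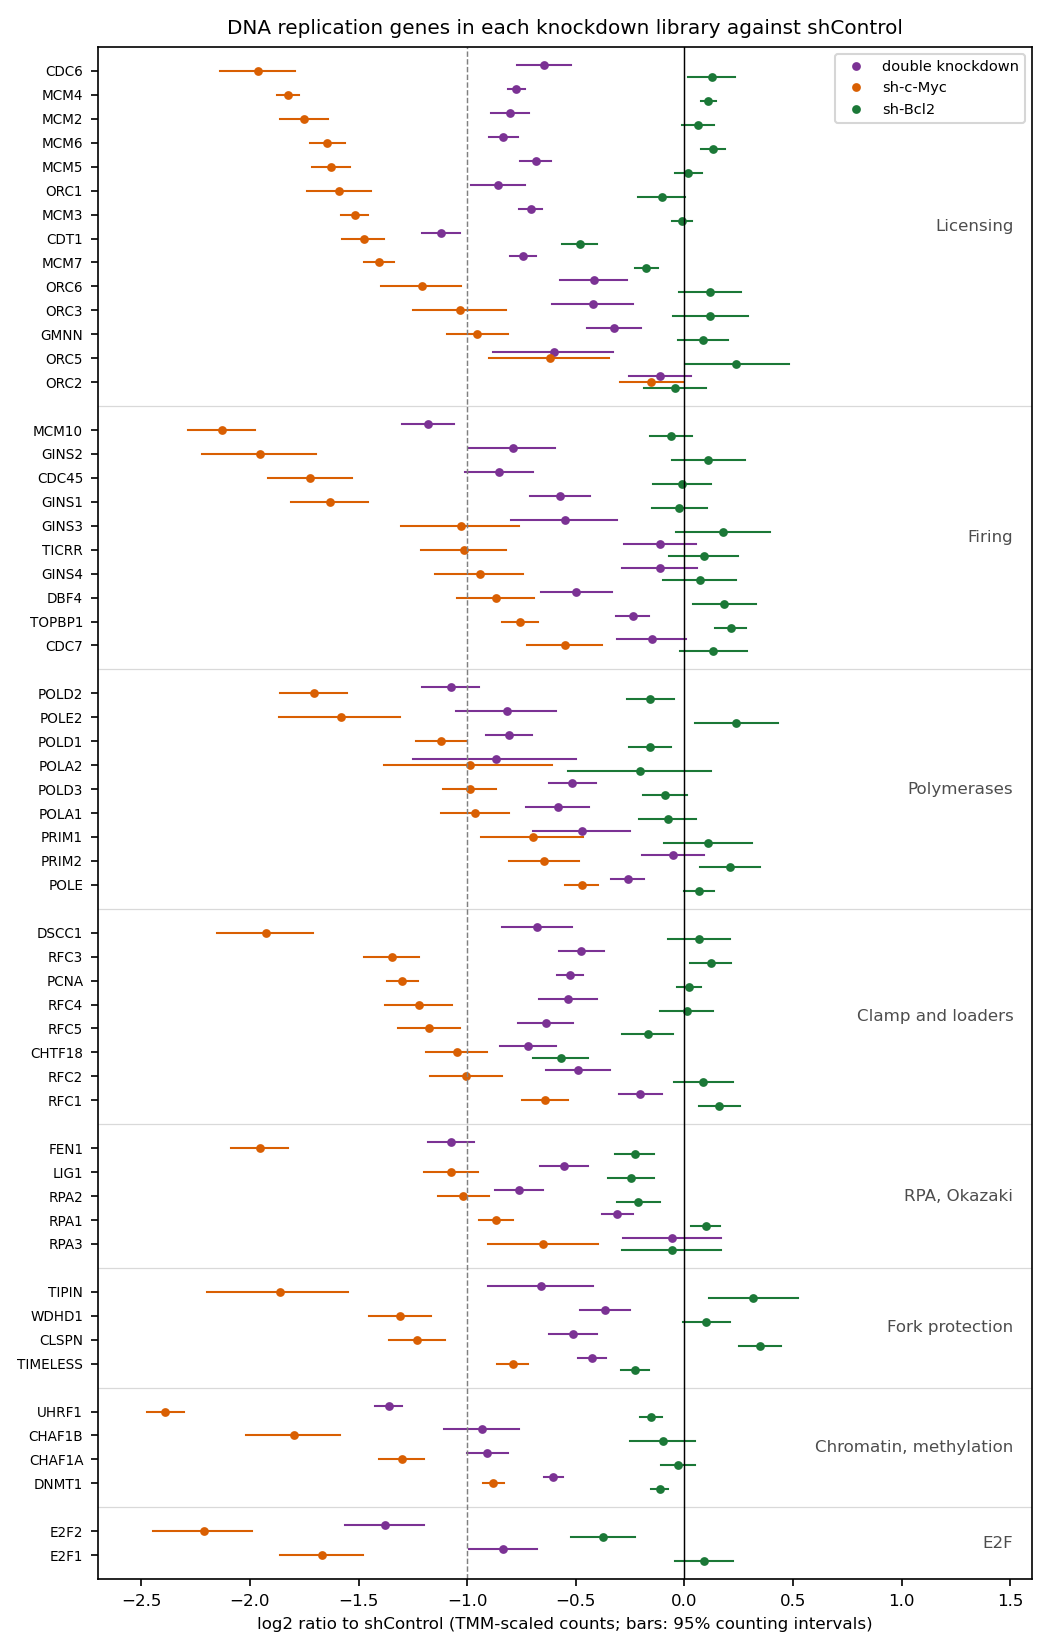
Log2 ratio of each of the 56 genes in the double knockdown (purple), sh-c-Myc (orange) and sh-Bcl2 (green) to shControl, grouped by role and sorted within each group, with 95% counting intervals as bars; the dashed line marks a 2-fold lower level. The sh-c-Myc points run between -2.39 and -0.15, the double knockdown points lie to their right, and the sh-Bcl2 points lie between -0.57 and 0.35.

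Promoters of 49 of the 56 genes were in the RefSeq table (GRCh38.p14, 250 bases before and 50 after the start site of each gene); MCM4, MCM5, GINS4, POLD3, DSCC1, RPA2 and RPA3 had no window. The sequences below show how the E2F octamers, letters known to bind E2F factors, sit in genes that moved much or little with the c-Myc hairpin: MCM6 and CDC6 for licensing, UHRF1 and E2F2 with the lowest ratios of their groups, and MCM10 and ORC2 as genes of a large and a small ratio with no octamer in the window. Each line gives 180 bases before and 30 after the start on the gene's own strand, 5′ to 3′, and the capitals mark the octamers TTTCCCGC, TTTCGCGC, TTTGCCGC and TTTGGCGC on either strand.
MCM6 (chr2:135876414-135876623, minus strand): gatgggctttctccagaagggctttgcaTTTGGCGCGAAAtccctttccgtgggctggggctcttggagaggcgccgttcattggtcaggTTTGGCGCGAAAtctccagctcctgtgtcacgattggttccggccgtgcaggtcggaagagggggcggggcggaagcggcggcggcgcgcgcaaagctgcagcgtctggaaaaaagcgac
CDC6 (chr17:40287699-40287908, plus strand): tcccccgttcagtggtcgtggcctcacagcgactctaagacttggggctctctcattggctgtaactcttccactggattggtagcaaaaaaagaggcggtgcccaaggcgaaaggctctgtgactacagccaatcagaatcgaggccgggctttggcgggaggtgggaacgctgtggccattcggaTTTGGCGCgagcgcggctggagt
UHRF1 (chr19:4909321-4909530, plus strand): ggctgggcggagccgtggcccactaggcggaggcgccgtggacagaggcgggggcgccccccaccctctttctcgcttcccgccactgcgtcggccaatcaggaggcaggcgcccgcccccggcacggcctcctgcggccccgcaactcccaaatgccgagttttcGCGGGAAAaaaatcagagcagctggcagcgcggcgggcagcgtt
E2F2 (chr1:23531204-23531413, minus strand): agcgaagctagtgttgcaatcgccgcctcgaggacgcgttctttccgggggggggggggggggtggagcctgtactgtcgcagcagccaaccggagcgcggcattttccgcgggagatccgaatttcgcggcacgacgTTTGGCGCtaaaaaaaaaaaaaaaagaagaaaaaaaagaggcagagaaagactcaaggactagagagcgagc
MCM10 (chr10:13161378-13161587, plus strand): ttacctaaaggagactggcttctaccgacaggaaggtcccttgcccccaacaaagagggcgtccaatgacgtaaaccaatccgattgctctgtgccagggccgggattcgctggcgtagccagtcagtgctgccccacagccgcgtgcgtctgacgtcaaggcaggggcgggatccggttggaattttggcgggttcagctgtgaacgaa
ORC2 (chr2:200963631-200963840, minus strand): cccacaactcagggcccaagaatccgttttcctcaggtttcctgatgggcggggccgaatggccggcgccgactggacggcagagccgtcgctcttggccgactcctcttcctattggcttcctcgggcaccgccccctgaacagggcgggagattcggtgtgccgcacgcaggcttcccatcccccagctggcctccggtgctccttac

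The MCM6 window holds 4 octamer matches in 2 capital runs, since each run reads as an octamer on both strands, with the matches beginning 152, 148, 90 and 86 bases before the start. CDC6 has its octamer just after the start, the octamer of UHRF1 lies 14 bases before it on the opposite strand, in a window inside the longer GENCODE 29 span of that gene, and that of E2F2 begins 42 bases before it. An octamer was present in 23 of the 49 windows (46.9%), against 3.33% of all 27305 promoter windows and 5.7% of the 9260 windows of genes in the 2 by 2 fit below; 6 of the 30 matches overlapped another octamer and 1 overlapped another motif searched. The median log2 ratio in sh-c-Myc against shControl was -1.41 for the 23 genes with an octamer, of which 18 were called lower, and -1.08 for the 26 without, of which 16 were called lower. The ratios of the groups overlapped: those with an octamer ran between -2.39 and -0.47, and those without between -2.13 and -0.15. Only exact matches to the 4 octamers were counted, so a window without an octamer can still hold a near match. The MCM10 and CDC6 windows, for example, hold tttggcgg, which differs from TTTGGCGC only in its last letter.

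Other letters were searched on both strands of the same windows. The E-box CACGTG, which c-Myc binds together with MAX, was in 14.3% of the members' windows, 7.43% of all windows and 10.3% of the windows of genes in the fit. CCAAT, the box bound by NF-Y, was in 57.1% of the members' windows, 35.7% of all and 37.0% of those in the fit. The sh-c-Myc ratios split by CCAAT much as by the octamer. Their median was -1.30 for the 28 members with CCAAT (21 called lower) and -1.07 for the 21 without (13 called lower). For CACGTG it was -1.30 for the 7 members with it (4 called lower) and -1.22 for the 42 without (30 called lower). Whether any of these motifs bears on the ratios was not tested. TTTGAA, the core of the cell cycle homology region known from mitotic genes, was in 2.04% of the members' windows, 15.4% of all and 9.84% of those in the fit, while 62.5% of the 16 mitotic gene windows held it. The windows' GC content was 65.2% for the members and 64.4% for the genes in the fit, but 57.2% for all windows and 58.5% for the mitotic genes. The comparisons with all windows and with mitotic genes are thus not matched for base composition. A match describes letters in a window and is not a measured binding site.

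**Figure D2:**
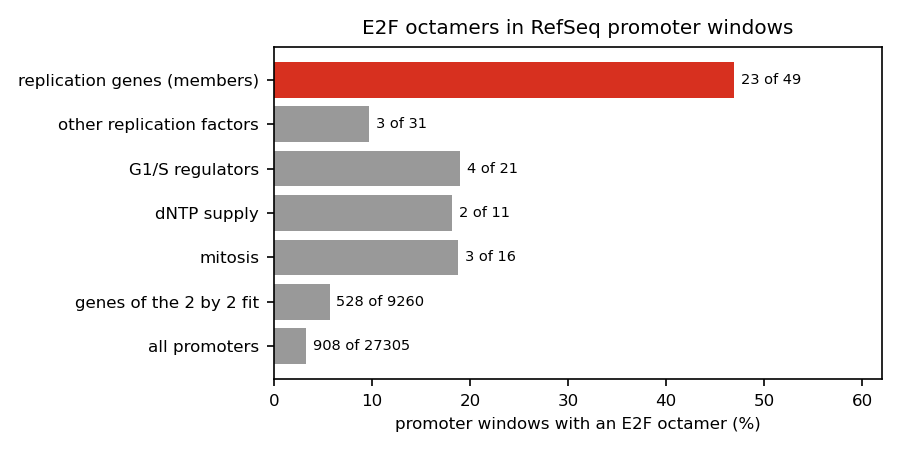
Share of RefSeq promoter windows (percent, x axis) that hold an E2F octamer, for the replication genes (red), 4 lists outside them and 2 backgrounds (grey), with the number of windows beside each bar. The replication genes stand at 46.9%, and the other lists between 9.68% and 19.0%.

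Licensing genes summed to 59.9% of their shControl level in the double knockdown and 34.3% in sh-c-Myc, where 11 of 14 were called lower with a median log2 ratio of -1.50. CDC6, the ATPase that helps ORC load the helicase, had the lowest ratio of the group. It stood at 57.4 CPM in the double knockdown, 23 CPM in sh-c-Myc, 98 CPM in sh-Bcl2 and 89.9 CPM in shControl, so it was 3.9-fold (3.47 to 4.4) lower in sh-c-Myc than in shControl. MCM4, a helicase subunit, stood at 516 CPM in the double knockdown, 249 CPM in sh-c-Myc, 952 CPM in sh-Bcl2 and 882 CPM in shControl, which was 3.54-fold (3.42 to 3.67) lower in sh-c-Myc than in shControl. For both genes sh-Bcl2 was close to shControl (log2 ratio 0.13 for CDC6 and 0.11 for MCM4), sh-c-Myc was lowest and the double knockdown lay between them. ORC2, a core subunit of ORC, stood at 52.5 CPM in the double knockdown, 51 CPM in sh-c-Myc, 55 CPM in sh-Bcl2 and 56.6 CPM in shControl. Its 4 values lay within 1.11-fold (1.01 to 1.23) of each other, and by the authors' FPKM, which are scaled to library totals, it stood at 9.07 FPKM in the double knockdown, 9.45 FPKM in sh-c-Myc, 9.09 FPKM in sh-Bcl2 and 9.22 FPKM in shControl, with no library clearly low.

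The 6 helicase subunits were all called lower, with log2 ratios in sh-c-Myc against shControl between -1.82 for MCM4 and -1.41 for MCM7. Their summed level was 1575.0 CPM in the double knockdown, 854.3 CPM in sh-c-Myc, 2719.1 CPM in sh-Bcl2 and 2657.8 CPM in shControl. Per length they were not equal: by FPKM the most abundant subunit exceeded the least abundant by 3.93 times in the double knockdown, 4.32 times in sh-c-Myc, 3.69 times in sh-Bcl2 and 3.76 times in shControl. MCM2 counts are uncertain, as 23.6% of its exonic bases overlap another gene. The ORC genes split. ORC1, the subunit whose level cycles with cell division, had 55 CPM in the double knockdown, 33.1 CPM in sh-c-Myc, 92.7 CPM in sh-Bcl2 and 99.7 CPM in shControl, while ORC5 had 12.2 CPM in the double knockdown, 12 CPM in sh-c-Myc, 21.8 CPM in sh-Bcl2 and 18.5 CPM in shControl, with the double knockdown no higher than sh-c-Myc within counting error. CDT1, the helicase loader that is destroyed in S phase, stood at 99.2 CPM in the double knockdown, 77.4 CPM in sh-c-Myc, 154 CPM in sh-Bcl2 and 216 CPM in shControl and was the licensing gene with the lowest sh-Bcl2 ratio (log2 -0.48). GMNN, the CDT1 inhibitor geminin, stood at 64.7 CPM in the double knockdown, 41.8 CPM in sh-c-Myc, 85.9 CPM in sh-Bcl2 and 81 CPM in shControl, 1.94-fold (1.76 to 2.14) lower in sh-c-Myc than in shControl and so not called.

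**Figure D3:**
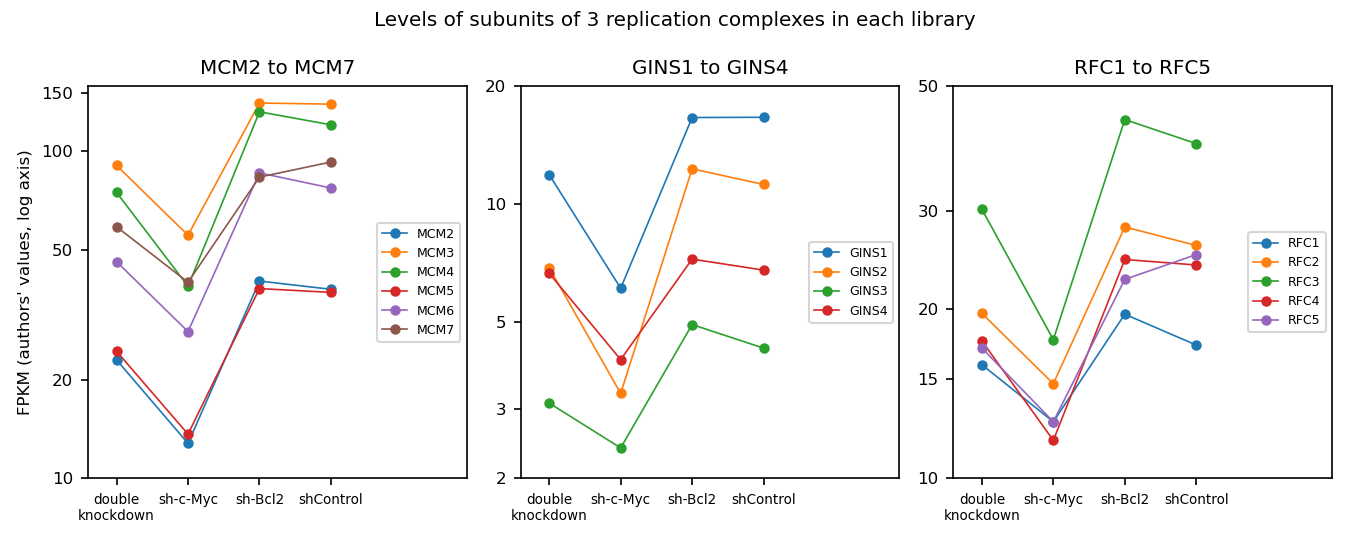
FPKM (the authors' values, log axes that differ between panels) of the subunits of the MCM2 to MCM7 helicase, GINS and RFC in the double knockdown, sh-c-Myc, sh-Bcl2 and shControl; lines join the values of 1 gene. Every subunit is lowest in sh-c-Myc and next lowest in the double knockdown, and MCM3 is the most abundant helicase subunit in each library.

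Among the origin firing genes 6 of 10 were called lower in sh-c-Myc, with a median log2 ratio of -1.02. MCM10, which helps activate the loaded helicase, stood at 53.5 CPM in the double knockdown, 27.7 CPM in sh-c-Myc, 116 CPM in sh-Bcl2 and 121 CPM in shControl and was 4.37-fold (3.93 to 4.87) lower in sh-c-Myc than in shControl. GINS2, a subunit of the GINS complex that rides with the helicase, stood at 22.3 CPM in the double knockdown, 9.94 CPM in sh-c-Myc, 41.6 CPM in sh-Bcl2 and 38.5 CPM in shControl and was 3.87-fold (3.24 to 4.67) lower. The c-Myc hairpin alone gave the lowest value of both genes. CDC7, the kinase that phosphorylates the helicase, stood at 41.8 CPM in the double knockdown, 31.7 CPM in sh-c-Myc, 50.9 CPM in sh-Bcl2 and 46.4 CPM in shControl and was 1.47-fold (1.3 to 1.65) lower, short of a call. Its activating subunit DBF4 was likewise not called (1.82-fold (1.61 to 2.06) lower), nor was the scaffold TOPBP1 (1.69-fold (1.59 to 1.79) lower). CDC45, the helicase cofactor, had 34.8 CPM in the double knockdown, 19 CPM in sh-c-Myc, 62.4 CPM in sh-Bcl2 and 62.9 CPM in shControl, with both sh-Bcl2 and shControl above the libraries that carry the c-Myc hairpin. The 4 GINS genes did not move alike, since their log2 ratios in sh-c-Myc against shControl were -1.63 for GINS1, -1.95 for GINS2, -1.03 for GINS3 and -0.94 for GINS4; reads of GINS3 and GINS4 are uncertain, as 10.9% and 23.6% of their exonic bases overlap another gene.

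The polymerase genes held the smallest share of calls of the 8 role groups, 3 of 9 lower in sh-c-Myc, with a median log2 ratio of -0.99. This share turns on the 2-fold cut, since the median was close to that of the firing genes (-1.02). POLD3, not called, was 1.98-fold (1.83 to 2.16) lower, and the intervals of POLA1 and POLA2 also reached past 2-fold. The called genes were POLD2, POLE2 and POLD1. POLD2, an accessory subunit of polymerase delta, stood at 46.1 CPM in the double knockdown, 29.8 CPM in sh-c-Myc, 87.3 CPM in sh-Bcl2 and 97.2 CPM in shControl and was 3.26-fold (2.93 to 3.63) lower in sh-c-Myc than in shControl. POLE2, the second subunit of polymerase epsilon, stood at 16.2 CPM in the double knockdown, 9.56 CPM in sh-c-Myc, 33.8 CPM in sh-Bcl2 and 28.7 CPM in shControl and was 2.99-fold (2.48 to 3.65) lower. POLE, the catalytic subunit of the same enzyme, stood at 182 CPM in the double knockdown, 157 CPM in sh-c-Myc, 228 CPM in sh-Bcl2 and 218 CPM in shControl, only 1.39-fold (1.32 to 1.47) lower. The 2 epsilon subunits thus changed by unequal amounts: by FPKM POLE exceeded POLE2 by 1.99 times in the double knockdown, 2.92 times in sh-c-Myc, 1.20 times in sh-Bcl2 and 1.35 times in shControl. None of the 4 polymerase alpha-primase genes was called, with log2 ratios of -0.96 for POLA1, -0.99 for POLA2, -0.70 for PRIM1 and -0.65 for PRIM2. Of these, POLA2 has 35.1% of its exonic bases in common with a gene annotated on the same strand and PRIM1 overlaps another gene over 21.6%, so their counts are uncertain.

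Of the clamp and clamp loader genes 7 of 8 were called lower in sh-c-Myc, with a median log2 ratio of -1.20. PCNA, the clamp itself, was the most abundant of the 56 genes per length in every library, at 174 FPKM in the double knockdown, 109 FPKM in sh-c-Myc, 244 FPKM in sh-Bcl2 and 237 FPKM in shControl. In CPM it was 2.46-fold (2.34 to 2.58) lower in sh-c-Myc than in shControl. DSCC1, a subunit of the alternative loader that serves sister chromatid cohesion, stood at 33.6 CPM in the double knockdown, 14.1 CPM in sh-c-Myc, 56.3 CPM in sh-Bcl2 and 53.7 CPM in shControl and was 3.8-fold (3.27 to 4.45) lower. RFC3, a small subunit of the main loader, stood at 85.9 CPM in the double knockdown, 46.9 CPM in sh-c-Myc, 129.8 CPM in sh-Bcl2 and 119 CPM in shControl and was 2.54-fold (2.33 to 2.78) lower. Both were lowest in sh-c-Myc and next lowest in the double knockdown. RFC1, the large subunit, stood at 106 CPM in the double knockdown, 78.4 CPM in sh-c-Myc, 137 CPM in sh-Bcl2 and 122 CPM in shControl and was 1.56-fold (1.45 to 1.68) lower, the only gene of the group not called. CHTF18, the large subunit of the alternative loader, stood at 52 CPM in the double knockdown, 41.4 CPM in sh-c-Myc, 57.7 CPM in sh-Bcl2 and 85.7 CPM in shControl and had the lowest sh-Bcl2 ratio of all 56 genes (log2 -0.57), against 0.07 for its partner DSCC1. The transcripts of these partners also differ in GC content, 65.1% for CHTF18 and 41.2% for DSCC1. RFC5 overlaps another gene over 10.7% of its exonic bases.

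Of the single-strand binding and Okazaki fragment genes 3 of 5 were called lower in sh-c-Myc, with a median log2 ratio of -1.02. FEN1, the flap nuclease that trims Okazaki fragments, stood at 71.6 CPM in the double knockdown, 38.9 CPM in sh-c-Myc, 129 CPM in sh-Bcl2 and 151 CPM in shControl and was 3.87-fold (3.54 to 4.25) lower in sh-c-Myc than in shControl. LIG1, the ligase that seals them, stood at 73.9 CPM in the double knockdown, 51.5 CPM in sh-c-Myc, 91.5 CPM in sh-Bcl2 and 109 CPM in shControl and was 2.11-fold (1.93 to 2.3) lower. For both genes sh-Bcl2 also lay below shControl, by less than 2-fold. RPA3, the smallest subunit of RPA, stood at 21.8 CPM in the double knockdown, 14.4 CPM in sh-c-Myc, 21.7 CPM in sh-Bcl2 and 22.6 CPM in shControl, 1.57-fold (1.32 to 1.87) lower and not called. It was the only 1 of the 56 genes whose double knockdown value was not below its sh-Bcl2 value. The other RPA subunits were 1.82-fold (1.73 to 1.93) lower for RPA1 and 2.02-fold (1.87 to 2.2) lower for RPA2, so RPA2 alone of the 3 passed 2-fold.

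Of the 4 fork protection genes 3 were called lower in sh-c-Myc, with a median log2 ratio of -1.27. TIPIN stood at 15.5 CPM in the double knockdown, 6.73 CPM in sh-c-Myc, 30.6 CPM in sh-Bcl2 and 24.6 CPM in shControl and was 3.63-fold (2.92 to 4.58) lower in sh-c-Myc than in shControl. Its binding partner TIMELESS, with which it holds the helicase and the checkpoint together, stood at 214 CPM in the double knockdown, 166 CPM in sh-c-Myc, 246 CPM in sh-Bcl2 and 288 CPM in shControl and was 1.73-fold (1.65 to 1.82) lower, not called. Within this pair TIPIN differed more between libraries than TIMELESS. WDHD1, which links the helicase to polymerase alpha, stood at 72.1 CPM in the double knockdown, 37.5 CPM in sh-c-Myc, 99.6 CPM in sh-Bcl2 and 92.8 CPM in shControl and was 2.48-fold (2.25 to 2.74) lower. CLSPN, the checkpoint mediator claspin, stood at 76.6 CPM in the double knockdown, 46.5 CPM in sh-c-Myc, 139 CPM in sh-Bcl2 and 109 CPM in shControl and had the highest sh-Bcl2 ratio of all 56 genes (log2 0.35). TIPIN counts are uncertain, since 21.0% of its exonic bases overlap another gene.

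Genes that restore chromatin and DNA methylation behind the fork held the lowest ratio of all. UHRF1, which reads hemimethylated DNA and recruits the maintenance methyltransferase (ENSG00000276043, GENCODE 29 span chr19:4903080-4962154 on GRCh38), stood at 180.3 CPM in the double knockdown, 88.4 CPM in sh-c-Myc, 417 CPM in sh-Bcl2 and 463 CPM in shControl and was 5.24-fold (4.94 to 5.56) lower in sh-c-Myc than in shControl. DNMT1, the methyltransferase it recruits, stood at 453 CPM in the double knockdown, 374 CPM in sh-c-Myc, 636 CPM in sh-Bcl2 and 689 CPM in shControl and was 1.84-fold (1.78 to 1.9) lower, not called. The values of DNMT1 kept the same order as those of UHRF1 over a narrower range. CHAF1B, a subunit of the histone chaperone CAF-1, stood at 27.5 CPM in the double knockdown, 15.1 CPM in sh-c-Myc, 49 CPM in sh-Bcl2 and 52.5 CPM in shControl and was 3.48-fold (3.0 to 4.05) lower. Of the group 3 of 4 genes were called lower, with a median log2 ratio of -1.55, and the group's sum was 54.7% of shControl in the double knockdown and 39.8% in sh-c-Myc.

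Both E2F activators in the set were called lower in sh-c-Myc. E2F2 stood at 22.8 CPM in the double knockdown, 12.8 CPM in sh-c-Myc, 45.7 CPM in sh-Bcl2 and 59.2 CPM in shControl and was 4.63-fold (3.97 to 5.44) lower in sh-c-Myc than in shControl. E2F1 stood at 35 CPM in the double knockdown, 19.6 CPM in sh-c-Myc, 66.4 CPM in sh-Bcl2 and 62.4 CPM in shControl and was 3.18-fold (2.79 to 3.63) lower. Their level in the double knockdown was 47.5% of shControl as a sum, the lowest share of the 8 role groups in that library. In sh-Bcl2 the log2 ratio to shControl was 0.09 for E2F1 (interval -0.04 to 0.22) and -0.37 for E2F2 (interval -0.52 to -0.23), short of 2-fold for both.

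In the double knockdown 6 of the 56 genes were called lower than shControl and 0 higher, against 5.95% of all genes called lower and 7.11% higher. They were CDT1, MCM10, POLD2, FEN1, UHRF1 and E2F2, and the members' median log2 ratio was -0.60, against -0.01 over all genes. With the loess trend of the ratio on transcript GC content and length removed, 3 were called. UHRF1 was 2.57-fold (2.46 to 2.69) lower and E2F2 2.6-fold (2.29 to 2.95) lower than in shControl. The share called lower is above that among all genes, but it rests on 6 genes, and on 3 with the trend removed. The ratios as a set are shifted: the interval lay below 0 for 50 of the 56 genes, as for 33.0% of all genes. The exceptions were ORC2, CDC7, GINS4, TICRR, PRIM2 and RPA3. In value 56 of 56 members lay below shControl, 54 of 56 with total count scaling, where PRIM2 and RPA3 were the exceptions.

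Against sh-c-Myc, 7 of the 56 genes were called higher in the double knockdown and 0 lower, while of all genes 1.65% were called higher and 4.85% lower. The median log2 ratio was 0.65, against 0.03 over all genes. The called genes were CDC6 (2.49-fold (2.2 to 2.83) higher), DSCC1 (2.38-fold (2.03 to 2.8) higher), TIPIN (2.3-fold (1.83 to 2.93) higher), GINS2 (2.23-fold (1.85 to 2.72) higher), GINS1 (2.08-fold (1.84 to 2.37) higher), MCM4 (2.07-fold (2.0 to 2.15) higher) and UHRF1 (2.04-fold (1.91 to 2.18) higher). The interval lay above 0 for 52 of the 56 genes, as for 31.4% of all genes, the exceptions being ORC2, ORC5, POLA2 and PRIM1. With total count or upper quartile scaling 4 were called, so the count rests on the scaling.

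**Figure D4:**
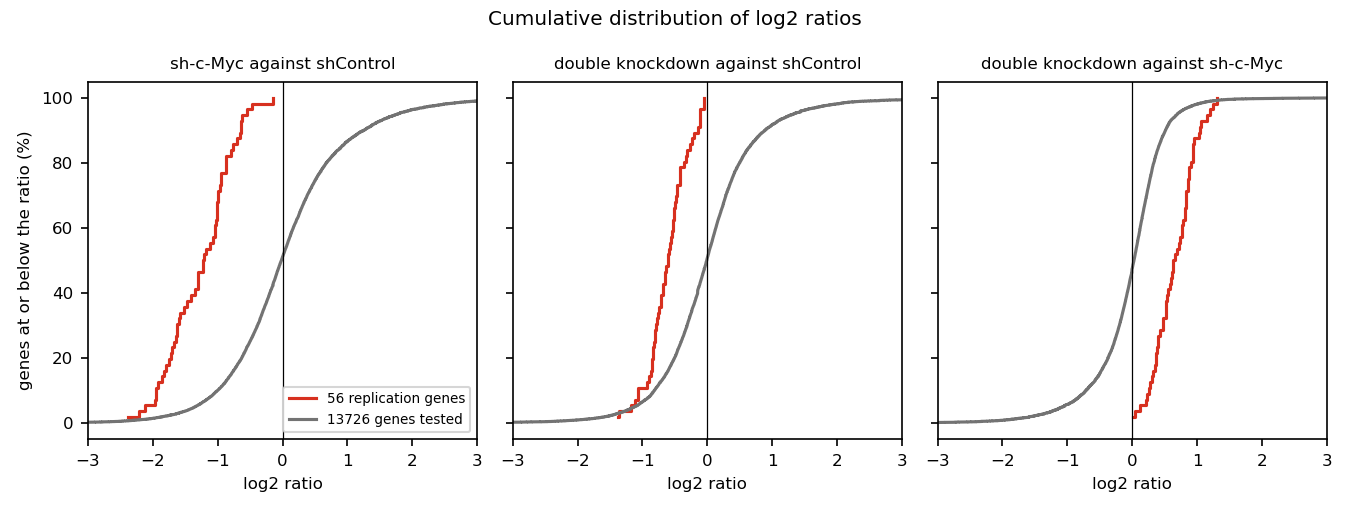
Cumulative share of genes (percent, y axis) at or below each log2 ratio, for the 56 replication genes (red) and the 13726 genes tested (grey), in sh-c-Myc against shControl, the double knockdown against shControl and the double knockdown against sh-c-Myc. The red medians are -1.22, -0.60 and 0.65, while the grey medians are -0.02, -0.01 and 0.03.

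The part of the sh-c-Myc gap that the double knockdown made up differed between groups of genes. On summed CPM it was 48.7% for firing, 47.2% for fork protection, 46.8% for the clamp and its loaders, 39.4% for RPA and Okazaki genes, 39.1% for licensing, 33.8% for the polymerases, 28.5% for the E2F activators and 24.8% for chromatin and methylation genes. These differences were not tested. Among complexes, the GINS genes stood at 53.5%, RFC1 to RFC5 at 49.1%, MCM2 to MCM7 at 40.0%, and the polymerase delta genes at 27.3%.

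Against sh-Bcl2, 4 of the 56 genes were called lower in the double knockdown and 0 higher, with 3.61% of all genes called lower and 5.19% higher. They were MCM10 (2.17-fold (2.0 to 2.36) lower), POLE2 (2.08-fold (1.79 to 2.43) lower), UHRF1 (2.31-fold (2.21 to 2.42) lower) and E2F2 (2.01-fold (1.76 to 2.29) lower). The median log2 ratio was -0.59, against -0.01 over all genes. With total counts 2 were called, MCM10 and UHRF1, and with FPKM plus 1 only UHRF1. The double knockdown shares its library between this comparison and that against shControl.

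The Bcl-2 hairpin alone left the set near shControl. None of the 56 genes was called lower or higher in sh-Bcl2, against 2.16% and 2.46% of all genes, and the median log2 ratio was 0.04, against 0.00 over all genes. Ratios ran between -0.57 for CHTF18 and 0.35 for CLSPN, and the counting interval lay below 0 for 13 genes (23.2%) and above 0 for 13 (23.2%), shares near those of all genes (23.0% and 21.8%). The 13 genes below 0 had a median transcript GC content of 56.4% (44.5% to 65.1%). It was 42.8% (39.1% to 48.5%) for the 13 above 0 and 46.7% for the 30 others. Whether GC content lay behind this split was not tested. After correction for transcript GC and length, the log2 ratio in sh-Bcl2 was -0.33 for CHTF18, -0.23 for CDT1 and -0.23 for E2F2.

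With the c-Myc hairpin present, adding the Bcl-2 hairpin went with higher levels of genes that the Bcl-2 hairpin alone left near shControl. The departure from additivity, the log2 ratio of the double knockdown to shControl minus those of both single knockdowns, had a median of 0.69 over the members, against 0.05 over all genes. It was called positive for 8 of the 56 genes and negative for 0, against 3.02% and 5.81% of all genes, and with total count scaling for 4. The called genes were CDC6 (1.19), GINS1 (1.08), GINS2 (1.05), MCM10 (1.01), DSCC1 (1.18), FEN1 (1.11), UHRF1 (1.18) and E2F2 (1.21). The interval was above 0 for 50 of the 56 genes, as for 29.1% of all genes, and the others were ORC2, ORC5, DBF4, GINS3, POLA2 and PRIM1. ORC5 alone had a value below 0 (-0.22, interval -0.59 to 0.15).

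**Figure D5:**
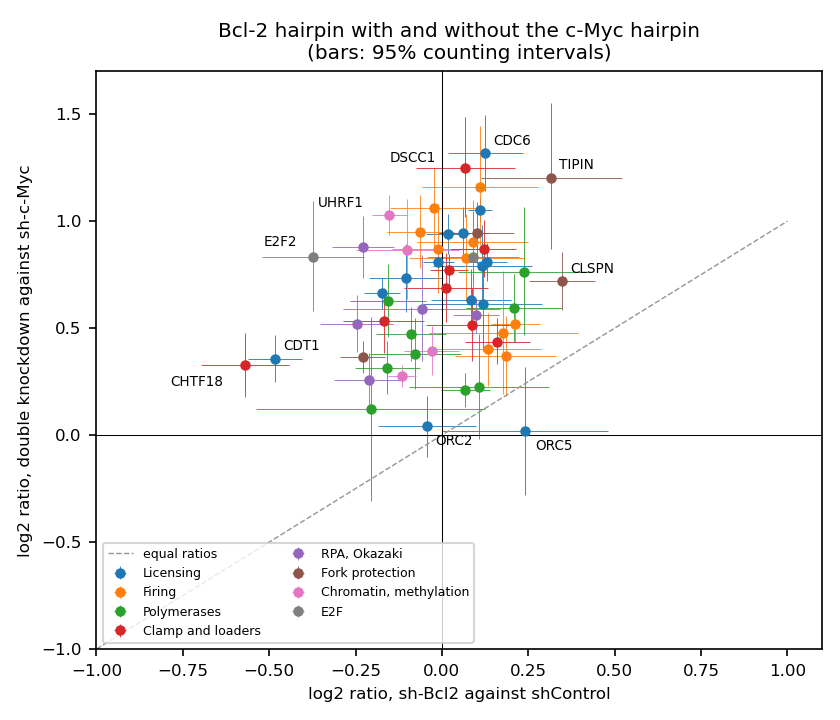
Log2 ratio of the double knockdown to sh-c-Myc (y axis) against that of sh-Bcl2 to shControl (x axis) for the 56 genes, coloured by role, with 95% counting intervals; the dashed line marks equal ratios. ORC5 is the 1 gene below the line and the others lie above it. All 56 genes lie above 0 on the y axis and 25 lie left of 0 on the x axis, of which CHTF18, CDT1 and E2F2 lie furthest left.

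The 2 by 2 layout was also fitted as a whole with edgeR's quasi-likelihood test, with 1 term per hairpin, over the 12885 genes that reached 1 CPM in 2 or more libraries. It leaves 1 residual degree of freedom per gene, in which departures from additivity and library-to-library spread are mixed. To this edgeR adds a prior worth 38 degrees of freedom, drawn from all genes. The p-values thus rest mostly on that mixture as pooled over genes, and little on a gene's own departure. The c-Myc term averages the ratio with and without the Bcl-2 hairpin. For the c-Myc hairpin 51 of the 56 genes had a lower level at a Benjamini-Hochberg adjusted p under 0.05 and 0 a higher one, against 15.9% and 13.0% of all genes. The largest term was that of UHRF1, log2 -1.76 (edgeR adjusted p = 1.36e-08), with limma-voom giving -1.77 ± 0.18 (SE). MCM10 had log2 -1.57 in edgeR (adjusted p = 3.31e-08), with -1.56 ± 0.18 (SE) in limma-voom. The 5 genes that did not pass were ORC2 (edgeR adjusted p = 0.796), RPA3 (edgeR adjusted p = 0.357), CDC7 (edgeR adjusted p = 0.0974), POLE (edgeR adjusted p = 0.0853) and PRIM2 (edgeR adjusted p = 0.0633). MYC itself, outside the 56, had log2 -0.42 for this term (edgeR adjusted p = 0.0673). For the Bcl-2 hairpin 0 of the 56 genes passed in edgeR, in DESeq2 or in limma-voom, against 0.21% of all genes lower and 0.109% higher in edgeR. At an unadjusted edgeR p under 0.05 there were 23 of the 56 (41.1%) and 1185 of all 12885 genes (9.2%). The members' median Bcl-2 term was log2 0.32, against 0.00 over all genes of the fit. This term averages the ratio without the c-Myc hairpin (member median 0.04) and with it (member median 0.65).

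Genes of the same pathway outside the set were counted from 4 further lists. In sh-c-Myc against shControl, 9.8% of all genes tested were called lower and 12.7% higher. Of 37 other replication factors that passed the filter, 12 were called lower and 1 higher in sh-c-Myc than in shControl, with a median log2 ratio of -0.86. In value 33 lay below shControl and 4 above. They include subunits of complexes in the set, with log2 ratios of -0.08 for ORC4, -0.68 for POLE3 and -0.64 for POLE4. In the double knockdown ORC4 lay above shControl (log2 0.38). CHEK1, the checkpoint kinase, stood at 44.9 CPM in the double knockdown, 22.9 CPM in sh-c-Myc, 79.4 CPM in sh-Bcl2 and 80.6 CPM in shControl, and PCLAF, a PCNA-binding factor, at 31 CPM in the double knockdown, 15.6 CPM in sh-c-Myc, 38.6 CPM in sh-Bcl2 and 41.7 CPM in shControl, with 28.8% of its exonic bases overlapping another gene. POLD4, the small subunit of polymerase delta, was the gene called higher, at 3.77 CPM in the double knockdown, 6.16 CPM in sh-c-Myc, 1.72 CPM in sh-Bcl2 and 1.7 CPM in shControl. Its counts were few (96 in sh-c-Myc and 24 in shControl). They are also uncertain, as 21.3% of its exonic bases overlap another gene on the same strand. Of 27 regulators of the G1/S transition 11 were called lower and 0 higher, with a median of -0.85. CDC25A, the phosphatase that activates CDK2, stood at 31.7 CPM in the double knockdown, 16.9 CPM in sh-c-Myc, 63.8 CPM in sh-Bcl2 and 72.1 CPM in shControl, CCND1 (cyclin D1) at 3.71 CPM in the double knockdown, 1.99 CPM in sh-c-Myc, 7.73 CPM in sh-Bcl2 and 10.1 CPM in shControl and RBL2, a repressor of E2F targets, at 184 CPM in the double knockdown, 183 CPM in sh-c-Myc, 152 CPM in sh-Bcl2 and 135 CPM in shControl.

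Of 13 genes of dNTP supply 7 were called lower and 1 higher in sh-c-Myc than in shControl, with a median log2 ratio of -1.07. Among all genes, 9.8% were called lower and 12.7% higher. RRM2, the S phase subunit of ribonucleotide reductase, stood at 74 CPM in the double knockdown, 25.1 CPM in sh-c-Myc, 148 CPM in sh-Bcl2 and 102 CPM in shControl, and NME1, a nucleoside diphosphate kinase, at 4.48 CPM in the double knockdown, 2.18 CPM in sh-c-Myc, 10.9 CPM in sh-Bcl2 and 11 CPM in shControl. SAMHD1, which degrades dNTPs, was the gene called higher, at 232 CPM in the double knockdown, 199 CPM in sh-c-Myc, 114 CPM in sh-Bcl2 and 84.7 CPM in shControl. Of 22 mitotic genes 19 were called lower and 0 higher, with a median of -1.33. CDC20, the activator of the anaphase-promoting complex, stood at 79 CPM in the double knockdown, 30.7 CPM in sh-c-Myc, 122 CPM in sh-Bcl2 and 138 CPM in shControl, KIF20A, a kinesin of cell division, at 39.8 CPM in the double knockdown, 19.7 CPM in sh-c-Myc, 56.2 CPM in sh-Bcl2 and 62.7 CPM in shControl, and NUSAP1, a spindle protein, at 2.56 CPM in the double knockdown, 2.63 CPM in sh-c-Myc, 2.97 CPM in sh-Bcl2 and 2.27 CPM in shControl, with 62.2% of its exonic bases overlapping another gene. So replication genes were not the sole cell cycle group that was low in sh-c-Myc, and the mitotic genes' summed level made up 57.9% of the gap in the double knockdown.

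Depth and cell identity were read beside these results. The libraries held 15494138 counts in the double knockdown, 14421558 in sh-c-Myc, 15691129 in sh-Bcl2 and 14825763 in shControl, and non-coding genes took 0.867% to 1.29% of them, with the most in sh-c-Myc. All 9 markers of myeloid leukaemia cells had counts in every library. They summed to 2379.4 CPM in the double knockdown, 2566.1 CPM in sh-c-Myc, 1525.5 CPM in sh-Bcl2 and 1405.7 CPM in shControl. In sh-c-Myc 2 of the 9 were called higher than in shControl, against 12.7% of all genes. The 12 markers of monocytes and macrophages summed to 834.6 CPM in the double knockdown, 796.8 CPM in sh-c-Myc, 304.1 CPM in sh-Bcl2 and 188.2 CPM in shControl; CD68 and MRC1 were at 0 in sh-Bcl2, CD68, MRC1 and FCGR3A in shControl, and MRC1 in the double knockdown. Granulocyte markers, of which 6 of 8 were in the table, summed to 3865.2 CPM in the double knockdown, 3879.0 CPM in sh-c-Myc, 1348.0 CPM in sh-Bcl2 and 2153.3 CPM in shControl; MMP8 and CAMP were at 0 in sh-Bcl2 and shControl, and MMP8 in sh-c-Myc. By these sums all 3 lists were high in the libraries in which the replication genes were low, but single markers differed. Of the markers that passed the filter, 5 of 9 for monocytes and macrophages and 2 of 4 for granulocytes were called higher in sh-c-Myc. Below shControl in the double knockdown lay 3 of 9 leukaemia markers, 0 of 9 for monocytes and macrophages and 1 of 4 for granulocytes. In sh-c-Myc these numbers were 2, 1 and 1. The part of the lists in the result was not tested. Markers of B cells, erythroid cells and megakaryocytes summed to at most 5.26 CPM in any library, and those of T and NK cells to between 52.9 and 67.8 CPM, with CD3D, CD3E, CD3G and CD2 not in the table.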

How the data were processed

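Each gene of the deposited table has a read count and an FPKM in 4 libraries. Per the submitters' processing notes the authors used HISAT2 and HTSeq 0.13.5 with GRCh38 to make the counts. The deposited FPKM, so named per the file headers, behave as counts divided by gene length and library total. The sources used here give neither the HISAT2 version nor the annotation release nor the strand setting, which leaves overlapping genes uncertain. All 24940 identifiers are in GENCODE 29, and the gene lengths implied by FPKM matched its exonic lengths (median ratio 1 over 9125 genes). Per the labels, selection was in puromycin at 0.5 µg/ml or G418 at 600 µg/ml, knockdown was checked by Western blot at 72 h of doxycycline, and each library was made from 1.5 µg of RNA.

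The 56 members and all other gene lists were chosen with earlier results of these data known. Depth ran between 14421558 and 15691129 counts per library, and 3 counts, the floor for a bound, equal 0.192 to 0.213 CPM. Ratios are log2 ratios of TMM-scaled counts (prior 0.5) with exact conditional binomial 95% intervals, and departures have delta-method intervals; reads are not independent molecules, so these cover counting error only. The 5 comparisons between libraries were made beside the 2 by 2 fit (R 4.3.3, edgeR 4.0.16; alternatives DESeq2 1.42.0 and limma 3.58.1; common dispersion 0.0211). The scripts were tested on simulated data. In each role group the 2 genes with the lowest and the 1 with the highest sh-c-Myc ratio, and likewise in each outside list, were given in all 4 libraries; other members named beside them were chosen after their values were seen. Promoter windows come from RefSeq (GRCh38.p14). Tables were handled with Python 3.11.15, numpy 2.4.6, scipy 1.17.1 and statsmodels 0.14.6, and plots drawn with matplotlib 3.10.9. Alternatives were other scalings, filters, a 1.5-fold rule, FPKM plus 1, taking out a trend on GC and length, and other tools for the fit.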

Additional observations from a re-analysis of the deposited data

Results flagged for a closer look

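For 3 of the 56 genes the Bcl-2 hairpin went with opposite differences in the presence and in the absence of the c-Myc hairpin, each of at least 0.32 on the log2 scale and with a counting interval that excludes 1. E2F2 had a log2 ratio of 0.83 for the double knockdown over sh-c-Myc and -0.37 in sh-Bcl2 against shControl. CDT1 had 0.36 for the double knockdown over sh-c-Myc and -0.48 in sh-Bcl2 against shControl. CHTF18 had 0.33 for the double knockdown over sh-c-Myc and -0.57 in sh-Bcl2 against shControl. After correction for transcript GC and length, the sh-Bcl2 ratios of CDT1 and E2F2 were both -0.23, short of the minimum, and only CHTF18 met it (0.53 for the double knockdown over sh-c-Myc and -0.33 in sh-Bcl2 against shControl). With total counts the double knockdown over sh-c-Myc was 0.26 for CDT1 and 0.23 for CHTF18, also short of it, so none of the 3 met it under both settings. With TMM scaling, opposite differences of this kind were seen for 391 of the 13726 genes tested. Each ratio rests on 1 library per group, so the difference between them was not tested.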

How the results depend on the processing

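No member changed the direction of a called ratio under any alternative run. The count of members lower in sh-c-Myc than in shControl, 38 in the report, ran between 26 (FPKM plus 1) and 53 (1.5-fold rule), with 29 under total counts or upper quartile factors, and the median log2 ratio between -1.23 and -0.95. Of 100 recomputed counts 12 moved by over 1.5 times. With the 1.5-fold rule 29 members were lower in the double knockdown than in shControl, 33 were higher in it than in sh-c-Myc, 28 were lower in it than in sh-Bcl2, and 33 departed from additivity. With total counts 4 were higher in the double knockdown than in sh-c-Myc, 2 were lower in it than in sh-Bcl2, 4 departed from additivity, and 1 was higher with the Bcl-2 hairpin in the 2 by 2 fit. With upper quartile factors 4 were higher in the double knockdown than in sh-c-Myc. With FPKM plus 1, 2 were higher in the double knockdown than in sh-c-Myc and 1 was lower in it than in sh-Bcl2. With the GC and length trend removed 3 were lower in the double knockdown than in shControl. For the c-Myc hairpin term 43 members passed in DESeq2 and 51 in limma-voom. FPKM plus 1 changes both the pseudocount and the scaling, to library totals, and their parts were not told apart. The looser fold adds calls by its construction, and the cause of the other moves was not tested. Counts under the alternatives stand here without a share of all genes, so they show only how the members' calls moved. Over genes averaging 50 counts or more the median log2 ratio in sh-c-Myc against shControl was -0.10 with TMM and 0.08 with total counts, so small ratios turn on the scaling.

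No paired analysis was possible because each group has 1 library and the groups share only the replicate number 1. Leaving out a library would remove a whole group and the residual degree of freedom of the 2 by 2 fit, so it was not run. At 14421558 counts or more per library the depth limits most the genes of few counts, such as POLA2 and TIPIN, whose intervals were the widest in sh-c-Myc against shControl; the spread between cultures is unknown.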
